A study of Mus musculus with 2 samples.

Results

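Forkhead genes encode transcription factors that share a winged-helix DNA-binding domain, and one of them, Foxf1, was deleted in this study. The genes described here are Foxf1 itself and 9 relatives (Foxf2, Foxo1, Foxo3, Foxp1, Foxp4, Foxk1, Foxk2, Foxj2 and Foxj3), taken as the rows whose Ensembl gene ID carries one of these symbols in the GENCODE M21 annotation. Of the 10 listed symbols, 9 were read from both libraries, out of 38288 genes in all, and Foxf1 was not analysed here. The check of the deletion by the level of the targeted gene was therefore not made, and each library is called by its label.

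Liver cells were taken from adult male C57/Bl6 mice given carbon tetrachloride (CCl4), a hepatotoxin, for 5 weeks. Both groups carried the Foxf1 allele flanked by loxP sites. The Foxf1fl/fl group had no Cre, and the αSMACreER;Foxf1−/− group also carried a tamoxifen-inducible Cre driven by the promoter of smooth muscle actin, so that deletion is directed to cells that use this promoter and not to the other cells on the plate. According to the methods of the study, the controls were Foxf1fl/fl littermates, and tamoxifen was injected repeatedly during the injury. The cells were those that adhered to plastic within 2 h, RNA was pooled within a genotype, and 1 library per genotype was sequenced with single-end reads of 75 bases.

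With 1 pooled library per genotype, no difference below has a replicate check, no test of the genotype was possible and no p-value is given. Pairs of values name Foxf1fl/fl first and αSMACreER;Foxf1−/− second. The values are FPKM, fragments per kilobase of transcript normalised to the mapped fragments of the library, which can be compared between genes. A comparison between libraries depends on how they are scaled to each other. The summed FPKM of all genes was 743198 and 656549. The spacing of low values gave a rough depth of 9600000 mapped reads for Foxf1fl/fl and 11320000 for αSMACreER;Foxf1−/−, with 46.7% and 47.4% of those low values within 0.1 of a whole read. Approximate 95% counting intervals follow from that depth with reads placed on the longest annotated transcript. They cover counting error and not differences between mice or libraries, and they are too narrow for a gene that is read mainly from shorter transcripts.

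Adherence selects a mixed population, which matters for genes used by many cell types. Of 15 stellate cell and myofibroblast markers, the median FPKM was 1.03 and 1.43, and Gfap was listed at 0 in both libraries. Of 15 macrophage markers, 4 were above 0 on the log2 difference, 1 was 1.5-fold higher and 2 were 1.5-fold lower. Their median log2 difference was −0.34. Their summed FPKM was 13841 and 11457, while their median FPKM was 646 and 679. With the median of genes of similar transcript length subtracted, their median log2 difference was −0.12. On that scale 0 of the 15 were 1.5-fold higher and 0 lower. The part of transcript length in the macrophage values was not tested. The median FPKM over 13 endothelial markers was 64.0 and 77.3. Over 11 hepatocyte markers it was 322 and 86.8, and all 11 were at least 1.5-fold lower in the αSMACreER;Foxf1−/− library. The share of each forkhead signal that came from stromal cells was not tested, and in bulk RNA fewer cells of a type and less RNA per cell cannot be told apart.

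Forkhead proteins bind related DNA sequences and are told apart by their partners and by the signals that control them. FOXF1 and FOXF2 act in mesenchyme downstream of Hedgehog signalling. FOXO proteins are driven out of the nucleus when insulin or growth factors activate AKT, and they otherwise induce genes of metabolism, stress resistance and cell cycle arrest. FOXP proteins are repressors that pair with each other, FOXK proteins recruit the SIN3 and BAP1 complexes, and FOXJ2 and FOXJ3 are broadly expressed activators.

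The relatives of Foxf1 fell into an abundant pair, a middle group and a gene near the detection limit. Foxp4 and Foxp1 led in both libraries, and Foxf2, the closest relative of Foxf1, was barely detected in either. Of the 9 genes, 8 passed the filter of a mean FPKM of at least 1, and Foxf2 did not. Of these 8, 7 were higher in the αSMACreER;Foxf1−/− library on the scaled log2 values, and 2, Foxk2 and Foxj3, were higher by at least 1.5-fold. None of the 8 was lower by 1.5-fold.

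**Figure D1:**
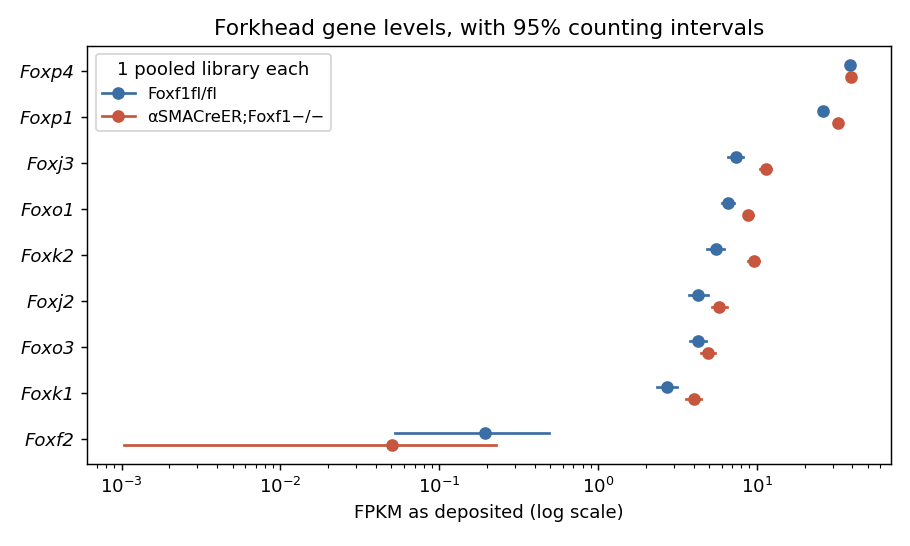
FPKM of each gene (x axis, log scale) in the Foxf1fl/fl library (blue) and the αSMACreER;Foxf1−/− library (red), with points for the deposited value and lines for the 95% counting interval. Foxp4 and Foxp1 lie at 26.0 or above in both libraries, the next 6 genes between 2.73 and 11.4, and Foxf2 at 0.194 and 0.0504.

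In the Foxf1fl/fl library the order of the levels was Foxp4, Foxp1, Foxj3, Foxo1, Foxk2, Foxj2, Foxo3, Foxk1 and Foxf2. The neighbours from Foxj3 to Foxo3 had counting intervals that overlapped pair by pair, so the order of adjacent genes is not resolved. Some genes further apart did separate. The interval of Foxj3 (6.62 to 8.25) lay above that of Foxk2 (4.85 to 6.22). That of Foxo1 (6.08 to 7.22) lay above those of Foxj2 (3.72 to 4.90) and Foxo3 (3.78 to 4.82). In the αSMACreER;Foxf1−/− library Foxk2 stood above Foxo1, with overlapping intervals, and the order was otherwise the same. Foxp4 stood at percentiles 81.0 and 82.1 of the 12861 genes past this filter, and Foxp1 at 74.2 and 79.0. The listed genes held 72.3% and 67.9% of the summed FPKM of all 41 forkhead genes read. Foxp1 and Foxp4 alone held 48.9% and 41.9%. With Foxn3, which is not on the list, left out of the total, the direction turned and the listed genes held 73.8% and 78.9%, and their own summed FPKM was 95.6 and 116.3.

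Sequences upstream of 4 genes are shown because these genes mark the extremes of the data. Foxk2 and Foxj3 were the genes past 1.5-fold, Foxp4 was the most abundant and Foxf2 the least. Each line gives the 250 bases before the RefSeq start of transcription on GRCm38.p6, read 5′ to 3′ along the gene's strand, with the matched motifs in capitals.
Foxk2, chr11:121259737-121259986, plus strand: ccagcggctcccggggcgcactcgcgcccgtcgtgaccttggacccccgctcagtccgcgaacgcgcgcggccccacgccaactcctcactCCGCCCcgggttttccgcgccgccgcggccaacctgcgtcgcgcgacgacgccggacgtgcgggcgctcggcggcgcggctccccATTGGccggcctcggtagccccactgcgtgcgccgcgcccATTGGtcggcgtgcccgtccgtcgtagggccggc
Foxj3, chr4:119539411-119539660, plus strand: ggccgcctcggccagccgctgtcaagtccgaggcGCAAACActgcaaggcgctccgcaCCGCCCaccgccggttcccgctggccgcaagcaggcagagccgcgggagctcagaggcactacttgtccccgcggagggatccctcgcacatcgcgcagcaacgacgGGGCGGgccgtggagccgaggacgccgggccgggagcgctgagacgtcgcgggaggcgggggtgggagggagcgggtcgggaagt
Foxp4, chr17:47924633-47924882, minus strand: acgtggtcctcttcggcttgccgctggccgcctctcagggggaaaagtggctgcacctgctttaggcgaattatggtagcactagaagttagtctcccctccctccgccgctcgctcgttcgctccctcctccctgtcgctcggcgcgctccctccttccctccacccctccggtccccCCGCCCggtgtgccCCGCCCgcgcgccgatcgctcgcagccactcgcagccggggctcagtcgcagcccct
Foxf2, chr13:31625566-31625815, plus strand: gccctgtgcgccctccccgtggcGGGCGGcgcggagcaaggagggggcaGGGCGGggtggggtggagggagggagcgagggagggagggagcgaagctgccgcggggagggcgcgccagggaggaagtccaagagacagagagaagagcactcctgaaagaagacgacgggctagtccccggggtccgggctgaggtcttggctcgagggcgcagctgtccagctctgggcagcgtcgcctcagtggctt

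The motifs searched on both strands were the forkhead motif TGTTTAC with its variants TATTTAC and also TGTTTGC, the GC box GGGCGG, the CCAAT box CCAAT and the TATA box TATAAA. In the lines above, Foxk2 held 1 GC box and 2 CCAAT boxes, Foxj3 held 2 GC boxes and 1 match to TGTTTGC, and Foxp4 and Foxf2 held 2 GC boxes each. RefSeq promoters were found for 8 of the 9 genes and gave 10 windows, 3 of them for Foxp1. Foxk1 had no entry. A GC box was present in 9 of the 10 windows and in 32.8% of all 32841 promoter windows of this length, or 55.5% of those whose genes passed the filter. TGTTTAC and TATTTAC were in 0 of the 10 windows, against 3.17% and 2.73% of all windows, and TGTTTGC was in 2, one of Foxj3 and one of Foxp1, against 4.30%. The median GC content was 72.8% in the 10 windows, with a range from 45.2% to 80.4%, and 52.4% in all windows. These are descriptions of sequence, and a match does not show that a factor binds.

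Foxp4 (ENSMUSG00000023991, chromosome 17 from 47867133 to 47924645 of GRCm38, minus strand) and Foxp1 (ENSMUSG00000030067, chromosome 6 from 98925338 to 99522721, minus strand) encode repressors that recruit histone deacetylase complexes. Foxp4 was read at 38.6 and 39.1 FPKM. Its log2 difference, αSMACreER;Foxf1−/− minus Foxf1fl/fl on the scaled log2(FPKM + 0.1) scale used throughout, was −0.0096 (counting interval −0.11 to 0.094), and its sign depended on the scaling. Counting intervals of log2 differences were computed from the estimated reads without the added 0.1. For genes of low FPKM the printed difference therefore understates the ratio behind its interval. Foxp1 had 26.0 and 32.7, a log2 difference of 0.31 (0.22 to 0.40). Foxp4 thus stayed level while Foxp1 stood above its Foxf1fl/fl value by more than counting error. Within a library, where no scaling enters, the ratio of Foxp4 to Foxp1 was 1.49 (counting interval 1.39 to 1.60) and 1.19 (1.12 to 1.27). These intervals did not overlap, with reads placed on the longest transcripts. On the median transcripts about 657 and 784 reads remained for Foxp4 and 287 and 426 for Foxp1, and the ratio was not rerun on them. Genes of similar transcript length had a median log2 difference of 0.12 for Foxp4 and 0.37 for Foxp1. The part of length in the ratio was not tested. Foxp1 has 31 annotated transcripts with a median length of 1351 bases against 7177 for the longest, so its reads may number far fewer than the 1739 and 2583 assumed.

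Foxo1 (ENSMUSG00000044167, chromosome 3 from 52268336 to 52353221, plus strand) and Foxo3 (ENSMUSG00000048756, chromosome 10 from 42181841 to 42276755, minus strand) are the main targets of insulin and AKT among the forkhead factors. Foxo1 was read at 6.64 and 8.84 FPKM, which gave a log2 difference of 0.38 (0.23 to 0.55). Foxo3 had 4.28 and 4.94, a log2 difference of 0.18 with a counting interval from −0.050 to 0.41. Foxo1 was higher beyond counting error, and for Foxo3 no difference was detectable at this depth. The ratio of Foxo1 to Foxo3 was 1.55 (1.34 to 1.80) and 1.79 (1.59 to 2.03), with overlapping intervals. An antisense gene, Gm20402, shares 674 exon bases with Foxo1 and had an FPKM of 4.36 and 6.90. Whether the counting used strand is not given in the sources used here, so reads of Foxo1 and Gm20402 may not be told apart in that stretch.

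Foxk2 (ENSMUSG00000039275, chromosome 11 from 121259990 to 121309896, plus strand) and Foxk1 (ENSMUSG00000056493, chromosome 5 from 142401497 to 142462011, plus strand) encode factors with a phosphopeptide-binding forkhead-associated domain that control glycolysis and autophagy genes. The FPKM of Foxk2 was 5.50 in the Foxf1fl/fl library against 9.54. Its log2 difference of 0.76 (0.55 to 0.99) was the largest of the 8. Foxk1 had 2.73 and 4.02, a log2 difference of 0.52 (0.27 to 0.80). Both genes of the pair were higher beyond counting error as computed on the longest transcript. With reads placed on the median transcript of Foxk2, 607 bases long, about 22 and 44 reads remained and the interval ran from −0.033 to 1.55. The ratio of Foxk2 to Foxk1 was 2.02 (1.67 to 2.45) and 2.37 (2.07 to 2.74).

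Foxj3 (ENSMUSG00000032998, chromosome 4 from 119537004 to 119629119, plus strand), an activator known from muscle, was read at 7.39 and 11.4 FPKM. Its log2 difference was 0.59 (0.40 to 0.79), just past the threshold of 0.585 that corresponds to 1.5-fold. Foxj2 (ENSMUSG00000003154, chromosome 6 from 122819914 to 122845366, plus strand) was at 4.28 and 5.83, a log2 difference of 0.41 (0.16 to 0.67). Both were higher beyond counting error, and the ratio of Foxj3 to Foxj2 was 1.73 (1.45 to 2.07) and 1.95 (1.71 to 2.24). The gene Frg2f1 lies on the other strand across the 5′ end of Foxj3, shares 0 exon bases with it and had an FPKM of 1.15 and 4.35. Foxj2 shares 158 exon bases with the antisense gene Gm26826, which had 0.0909 and 0.178.

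Foxf2 (ENSMUSG00000038402, chromosome 13 from 31625816 to 31631403, plus strand), a mesenchymal factor, was read at 0.194 and 0.0504 FPKM. These values rest on about 4 reads and 1 read, where 3 reads correspond to 0.144 and 0.122. The ratio of the scaled values was 0.255 with a counting interval from 0.0042 to 2.1, so no difference was detectable at this depth. Neither library held Foxf2 at a level near that of the other listed genes.

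**Figure D2:**
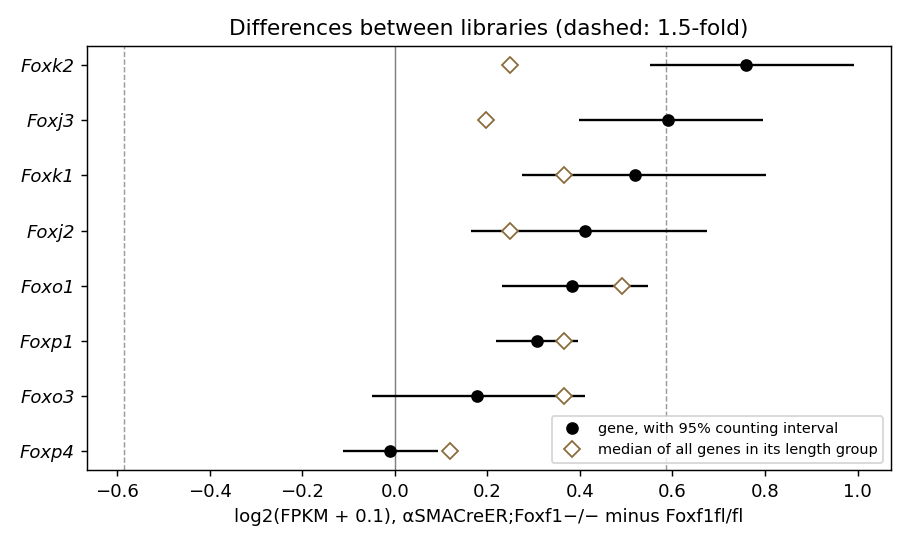
Log2 difference of the 8 genes that passed the filter (x axis, αSMACreER;Foxf1−/− minus Foxf1fl/fl), with black points for the gene, lines for its 95% counting interval and open diamonds for the median of all genes of similar transcript length. Foxk2 and Foxj3 lie to the right of the dashed 1.5-fold line with their intervals to the right of their diamonds, the intervals of Foxk1, Foxj2, Foxo1, Foxp1 and Foxo3 hold theirs, and that of Foxp4 lies to the left.

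Of all 12861 genes past the filter, 12.9% stood 1.5-fold or more above their Foxf1fl/fl value and 13.2% as far below it, against 2 and 0 of the 8 forkhead genes. The median log2 difference of the 8 was 0.40, and that of all genes 0.0058. When the libraries were scaled to an equal FPKM sum, the median of all genes moved to 0.21, the numbers of all genes went from 1662 higher and 1697 lower to 2820 and 1121, and 5 of the 8 forkhead genes passed 1.5-fold (Foxj2, Foxj3, Foxk1, Foxk2 and Foxo1).

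The forkhead transcripts are long, and differences between these libraries followed transcript length. Across 12692 genes, which do not count as replicates, Spearman's rho between the longest annotated transcript and the log2 difference was 0.45. The median longest transcript was 6066 bases in the 8 forkhead genes, with a range from 3999 to 8665, and 3066.5 bases in all genes. Genes were put into 20 groups by this length, and the 8 forkhead genes fell into 5 of them. The 3172 genes of these 5 groups had a median log2 difference of 0.28, with 75.8% of them above 0 and 22.2% at least 1.5-fold higher, so the share of 2 in 8 lay close to the share in genes of that length.

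Relative to their length groups the forkhead genes were spread around 0. Foxk2 stood 0.51 above the median of its group and Foxj3 0.39 above. Foxj2 stood 0.16 and Foxk1 0.15 above, while Foxp1 (−0.060), Foxo1 (−0.11), Foxp4 (−0.13) and Foxo3 (−0.19) stood below. On this scale 0 of the 8 passed 1.5-fold in either direction, against 10.0% of all genes higher and 11.1% lower. When genes were grouped by their median transcript instead, an alternative chosen after seeing the data, Foxk2 and Foxj3 were past 1.5-fold again. The part of transcript length in these differences was not tested beyond these values.

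**Figure D3:**
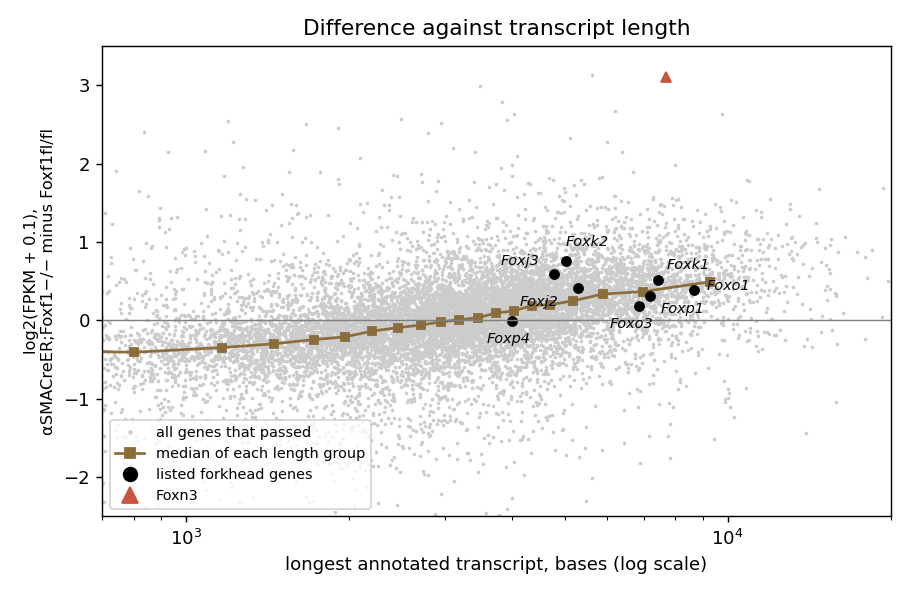
Log2 difference between the libraries (y axis) against the longest annotated transcript of each gene (x axis, bases, log scale). Grey points are genes that passed the filter, brown squares the median of each of 20 length groups, black points the 8 forkhead genes and the red triangle Foxn3. Points outside the axes are not drawn. The brown line climbs from −0.41 in the second group to 0.49 in the last, the black points lie around it, and Foxn3 lies far above at 3.11.

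The rest of the family was read for comparison. Of 32 other forkhead genes with a row in both libraries, 10 had an FPKM of at least 1 in either library, and 14 were listed at 0 in both. A gene listed at 0 could still have been missed below 3 reads, which correspond to an FPKM of 0.0828 to 0.468 in the Foxf1fl/fl library for the transcript lengths of these 14. Among the 7 past the filter, 1 stood higher by 1.5-fold and 0 lower, against 12.9% and 13.2% of all genes. The median log2 difference of the 7 was −0.026.

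Foxn3, a repressor linked to the DNA damage checkpoint, gave the widest difference of the family. It was read at 2.64 and 23.9 FPKM, which gave a log2 difference of 3.11 (2.94 to 3.38). Of all 12861 genes that passed the filter, 123 had a higher log2 difference, and of the 11584 protein-coding genes among them, 6 did. Foxn3 has 14 annotated transcripts with a median length of 656.5 bases against 7705 for the longest. With reads on the median transcript, about 12 and 124 reads remained and the interval was 2.25 to 4.10. The overlapping gene models with a row in the files, 3300002A11Rik, Gm19898 and Gm20682, were listed at 0 in both libraries. Without Foxn3, the summed FPKM of the forkhead genes was 129.5 and 147.4, and with it 132.2 and 171.3.

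The other forkhead genes at an FPKM of at least 1 differed by no more than counting error, apart from Foxn3 and, with reads on the longest transcript, Foxa2. Foxn2, a relative of Foxn3, had an FPKM of 9.99 and 11.4, a log2 difference of 0.16 (−0.015 to 0.34). Foxo4 had 7.17 and 7.16, and Foxm1, which drives mitotic genes, had 3.97 and 3.73, a log2 difference of −0.11 (−0.43 to 0.19). Foxm1 thus showed no difference between the libraries that was detectable at this depth. Foxs1, a gene of perivascular cells, had 3.73 and 2.68, a log2 difference of −0.49 (−1.20 to 0.20). Foxp3, which defines regulatory T cells, had 0.945 and 1.23 (0.32, −0.29 to 1.04). Of 11 lymphocyte markers past the filter, Cd4 (6.34 and 14.1) and Trac were 1.5-fold higher and Ighm 1.5-fold lower. Among all genes past the filter, 12.9% were that much higher and 13.2% lower. Of the 11 markers, 9 were above 0 on the log2 difference, against 50.4% of all genes. The T cell genes Cd3d (0.15, −0.22 to 0.53) and Cd3e (0.27, −0.0027 to 0.56) were within counting error. The T cell gene Cd8a, at 4.48 and 6.68 (0.54, 0.23 to 0.87), was higher beyond it. The part of T cells in the Foxp3 values was not tested. Foxj1, the factor of motile cilia, had 1.26 and 0.855, Foxo6 had 1.01 and 0.939, and Foxd2 had 1.01 and 0.623.

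The Foxa genes, known from hepatocytes, were low in both libraries, and none of them passed the filter. Foxa2, a pioneer factor of liver genes, was read at 1.11 and 0.505 FPKM, a log2 difference of −1.03 (−2.40 to −0.079) on about 21 and 11 reads. With reads on its median transcript, about 14 and 7, the interval ran from −2.81 to 0.14 and held 0, and Foxa2 reached an FPKM of 1 only in the library where it was high. Foxa1 had 0.789 and 0.549 and Foxa3 had 0.909 and 0.420, genes named after their values were seen. Their intervals, −1.50 to 0.40 and −2.45 to 0.17, held 0. In the same libraries 11 of 11 hepatocyte markers were at least 1.5-fold lower, with summed FPKM of 5741 and 2317 and none at 0, and their part in the Foxa values was not tested. Of the 22 forkhead genes below an FPKM of 1 in both libraries, 8 were above 0 in either, Foxa1 and Foxa3 among them. All 8 had the lower value in αSMACreER;Foxf1−/− cells, against 43.5% of all 6323 genes in this range. For 7 of the 8 the interval held 0, and the 3 listed at 0 there (Foxd1, Foxi1 and Foxp2) rested on 1 to 3 reads in the other library. Foxq1, named like these 3 after its values were seen, was the exception with 0.899 and 0.333 (−1.23, −2.31 to −0.58).

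**Figure D4:**
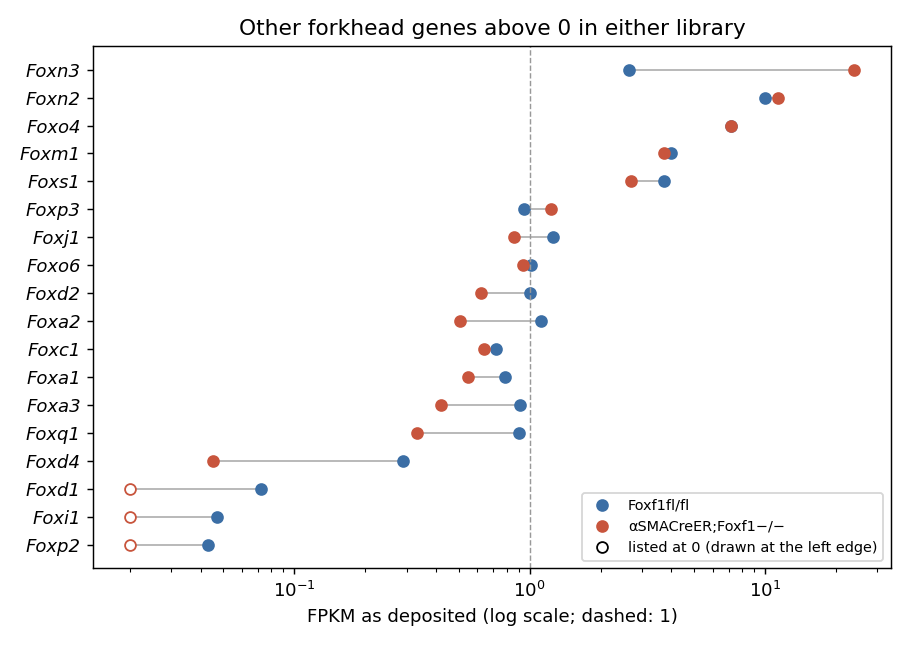
FPKM (x axis, log scale) of the 18 other forkhead genes above 0 in either library, in the Foxf1fl/fl library (blue) and the αSMACreER;Foxf1−/− library (red), joined by a grey line. Open points are listed at 0 and drawn at the left edge, and the dashed line marks an FPKM of 1. Foxn3 has the longest line at the top, from 2.64 to 23.9, and Foxa2, Foxa1 and Foxa3 lie further left in red than in blue.

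Genes that act before FOXO proteins were read from a list of 23, of which 22 passed the filter. All 22 were above 0 on the log2 difference, against 50.4% of all genes and 75.8% of genes as long as the listed forkhead genes. At least 1.5-fold higher were 6 of the 22, against 12.9% and 22.2% of these genes. As far below were 0 of the 22, against 13.2% and 4.2%. The 22 had a median log2 difference of 0.43 against 0.33 for the median of their length groups. Sgk1, a kinase that phosphorylates FOXO proteins as AKT does, had an FPKM of 188 and 252, a log2 difference of 0.40 (0.35 to 0.45). Ywhaz, one of the 14-3-3 proteins that hold phosphorylated FOXO in the cytoplasm, had 105 and 108, a log2 difference of 0.023. The widest differences were those of the acetyltransferase genes Crebbp, with 4.08 and 9.03 (1.10, interval 0.96 to 1.29), and Ep300, with 4.37 and 9.01 (1.0, 0.85 to 1.19). With the median of each length group subtracted, 1 of the 22 was past 1.5-fold, against 10.0% of all genes higher and 11.1% lower.

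The FOXO target genes lay on both sides of 0. Of 34 listed targets, 32 passed the filter, with 2 higher by 1.5-fold and 3 lower, against 12.9% and 13.2% of all genes. The median log2 difference was −0.025. With the length-group medians subtracted, 0 were higher and 3 lower, against 10.0% and 11.1% of all genes. Gadd45b, a stress response gene, had an FPKM of 514 and 415, and Cdkn1a, which encodes the cell cycle inhibitor p21, had 283 and 248. Their log2 differences of −0.33 and −0.22 were 0.015 and −0.0033 from the medians of their length groups. The widest differences were in Pck1, the gluconeogenic enzyme, with 48.0 and 16.5 (−1.56, −1.72 to −1.41), and Igfbp1, with 41.8 and 16.4 (−1.37, −1.60 to −1.16). Both are hepatocyte genes, and the hepatocyte markers were lower by a median of 1.48 on the log2 scale. The part of hepatocyte RNA in the values of Pck1 and Igfbp1 was not tested.

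Partners of the FOXK and FOXP factors were also read. All 17 FOXK partners passed, 6 of them higher by 1.5-fold and 0 lower, against 12.9% and 13.2% of all genes. Their median log2 difference was 0.33 against 0.25 for their length groups. With the length-group medians subtracted, 3 were higher and 1 lower, against 10.0% and 11.1% of all genes. The corepressors Sin3b and Sin3a differed in direction. Sin3b had an FPKM of 91.0 and 74.6, a log2 difference of −0.31 (−0.38 to −0.24), and Sin3a had 8.80 and 18.0, a log2 difference of 1.0 (0.84 to 1.18). Sap30, a subunit of the SIN3 complex, had 54.5 and 37.0 (−0.58, −0.77 to −0.39), and the demethylase gene Kdm1b had 2.00 and 4.08 (0.97, 0.64 to 1.37). Of 16 FOXP partners, 1 was at least 1.5-fold higher and 0 lower, against 12.9% and 13.2% of all genes, with a median of 0.17. With the length-group medians subtracted, 0 were higher and 0 lower, and the median was 0.041. Chd4 and Mbd3, of the nucleosome remodelling and deacetylase complex, had 50.1 and 62.9, and 61.2 and 53.7. Gatad2b, of the same complex, had 5.85 and 9.66 (0.69, 0.53 to 0.88), and the chromatin organizer Satb1 had 21.6 and 32.9 (0.58, 0.48 to 0.68).

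The Hedgehog pathway, which acts before Foxf1 and Foxf2 in mesenchyme, was low in both libraries. Only 5 of 14 genes passed the filter, with 2 of them higher by 1.5-fold and 0 lower, against 12.9% and 13.2% of all genes. With the length-group medians subtracted, 2 were higher and 1 (Sufu, −0.72) was lower, against 10.0% and 11.1% of all genes. Ptch1, the Hedgehog receptor and itself a target of the pathway, had an FPKM of 0.670 and 2.13 (1.51, 1.26 to 2.07), and the co-receptor gene Cdon had 0.606 and 1.89 (1.47, 1.13 to 2.16). Both passed the filter only through the library in which they were high. With their length-group medians subtracted, Ptch1 stood at 1.02 and Cdon at 1.10. Sufu, an inhibitor of the pathway, had 6.72 and 4.72 (−0.53, −0.79 to −0.28), and the co-receptor gene Gas1 had 3.42 and 3.66. Of the transcription factors of the pathway, named after their values were seen, Gli1 had 0.388 and 0.487, Gli2 had 0.0679 and 0.0134 and Gli3 had 0.249 and 0.440. Of the 15 stellate cell and myofibroblast markers, 8 passed the filter. Of these 8, 2 were higher by 1.5-fold (Des at 1.70 and 3.29, Pdgfra at 2.95 and 5.40) and 0 lower, against 12.9% and 13.2% of all genes. With the length-group medians subtracted, 1 was higher and 0 lower, against 10.0% and 11.1%. Above 0 on the log2 difference were 6 of the 8, against 50.4% of all genes. Among the 6 was Dcn at 127 and 186 (0.53, 0.48 to 0.58). Acta2, which encodes smooth muscle actin, had 7.77 and 5.65 (−0.48, −0.86 to −0.12), and Tagln had 5.51 and 4.31 (−0.37, −0.88 to 0.11). The list's summed FPKM was 1987 and 2207, with Gfap at 0. A single gene of the list held 1836.5 of the sum in the Foxf1fl/fl library, so the sum says little about the other markers. The part of stellate cells and myofibroblasts in the values of Ptch1 and Cdon was not tested.

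Endothelial genes ascribed to FOXF1 in the lung showed small differences. All 7 passed, and 0 differed by 1.5-fold in either direction, against 12.9% of all genes higher and 13.2% lower. The median log2 difference was 0.17, and 0.037 with the length-group medians subtracted. Cdh5, the endothelial cadherin, had an FPKM of 98.4 and 113 (0.17, 0.11 to 0.23), and Pecam1 had 93.3 and 96.6 (0.025, −0.046 to 0.096). The receptor genes Tek and Flt1 had 13.8 and 18.8 (0.42) and 19.4 and 26.1 (0.40). With the length-group medians subtracted, Cdh5 stood at 0.049, Pecam1 at −0.0084, Tek at 0.225 and Flt1 at 0.037. Cdh5, Flt1, Kdr, Pecam1 and Tek are also on the list of endothelial markers, and the part of endothelial cell number in these values was not tested.

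**Figure D5:**
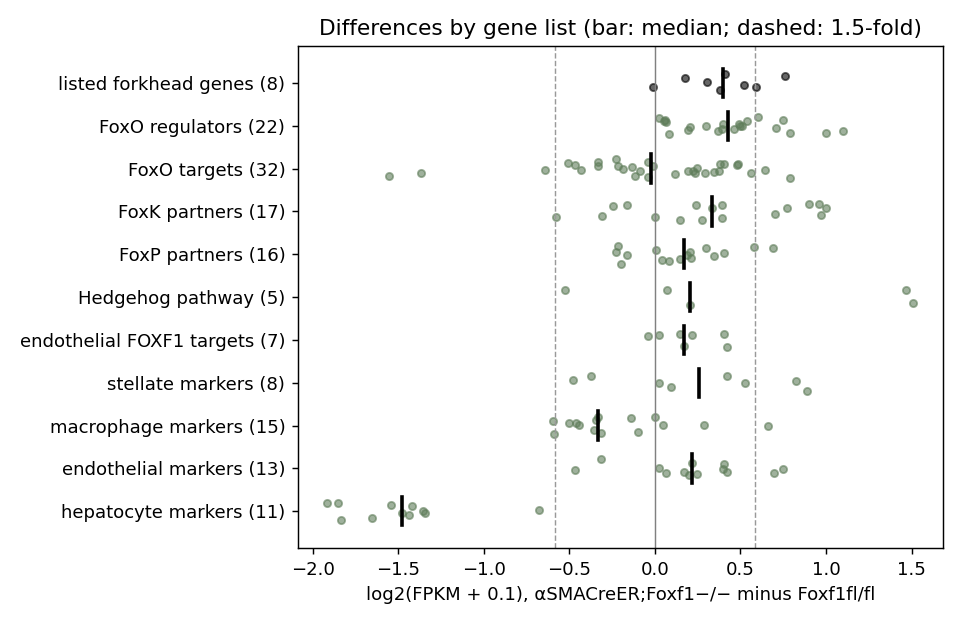
Log2 difference between the libraries (x axis) for each gene that passed the filter, in rows by list with the number of genes in parentheses, black bars for the median and dashed lines at 1.5-fold. The 8 listed forkhead genes have a median of 0.40 and the FOXO regulators of 0.43, the FOXO targets lie around −0.025, and all hepatocyte markers lie to the left of the lower dashed line.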

How the data were processed

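RNA from adherent liver cells was pooled within each genotype, and 1 library per genotype was sequenced. According to the methods of the study and the labels, single-end reads were aligned to mm10 with TopHat, and the authors deposited FPKM per Ensembl gene from Cufflinks. Versions and the annotation release are not given in the sources used here. Symbols, coordinates and transcript lengths came from GENCODE M21 (GRCm38), which named 95.2% of 38320 entries. The 3 entries with a failed status were left out, and where a symbol had several entries the most abundant was used.

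The αSMACreER;Foxf1−/− values were divided by 1.02, the median ratio over 12011 genes at 1 FPKM or above in each library. Then 0.1 was added as pseudocount and log2 taken, which understates changes of low genes. The 1.5-fold threshold is the fold part of the study's criterion. The study also set a false discovery rate, which was not applied here to 1 library per genotype. FPKM values are not counts, so no count model was used. Reads were estimated from the spacing of low values with fragments of 200 bases. Counting intervals are exact binomial or Poisson intervals at 95%, taken on these reads without the pseudocount. The procedure was tested on simulated data.

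The genes and lists were chosen with earlier results of these data known. All listed genes were named, then other forkhead genes at an FPKM of at least 1 in either library, and in each list the 2 genes with the highest mean and the 2 with the widest difference. Likeness of patterns was not ranked, since 2 libraries give 1 difference per gene. A lymphocyte marker list, with 2 of 11 passing genes higher by 1.5-fold and 1 lower, was also read. Foxf1 and a list of the genes next to it were not analysed here. Promoter sequences are from RefSeq on GRCm38.p6. Alternatives changed the pseudocount, scaling, filter, threshold, length trend and repeated symbols. The tools were pandas 2.3.3, numpy 2.4.6 and scipy 1.17.1 under Python 3.11.15, with plots from matplotlib 3.10.9.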

Additional observations from a re-analysis of the deposited data

How the results depend on the processing

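No paired analysis was possible because only 1 library was made per genotype, and for the same reason no library could be left out. The difference of Foxf1 was not analysed here. The number of forkhead genes at least 1.5-fold higher, 2 as reported, was 1 with a pseudocount of 1 (Foxk2), 5 with an equal FPKM sum, 0 with the length trend removed and 0 at a threshold of 2-fold. It was 1 (Foxj3) when the counting interval had to leave out 0 with reads placed on the median transcript, an alternative chosen after seeing the data. It was 2 with a pseudocount of 0.01, the values as deposited, upper-quartile scaling, entries summed, no filter and a mean FPKM of at least 5. The number at least 1.5-fold lower was 0 in every setting except without a filter, where Foxf2 entered and made it 1. The median log2 difference of 0.40 fell to 0.047 with the length trend removed and 0.13 with that trend taken on the median transcript, also chosen after seeing the data, and lay between 0.35 and 0.60 otherwise. Over 8 settings that give a value per gene (as reported, 2 other pseudocounts, 3 other scalings, entries summed and the length trend removed), Foxk2 ranged from 0.51 to 0.96, Foxj3 from 0.39 to 0.79 and Foxp4 from −0.13 to 0.19. The signs of Foxo1, Foxo3 and Foxp1 were negative with the length trend removed, that of Foxo3 also on the median transcript, and positive otherwise. None of the genes past 1.5-fold that were rerun (the listed forkhead genes, the other forkhead genes at an FPKM of at least 1 and the genes named by rule from the pathway lists) changed sign. Marker genes and the forkhead genes named after their values were seen were not rerun. Depth limits Foxf2 most, at about 4 reads and 1 read.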
